A study of Mus musculus with 17 samples.

Results

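The aldo-keto reductases Akr1b3, Akr1b7, Akr1b8, Akr1c6, Akr1c12, Akr1c13, Akr1c14, Akr1c18, Akr1c19 and Akr1c20 were followed in the mouse colon. All 10 genes were found by symbol among the 56605 distinct probes of a 1-colour Agilent mouse array, on 13 probes in all, and each is described by the probe with the highest mean in the values the authors deposited. Akr1c6 and Akr1c20 have no probe in that deposited table and were taken from the scanner files by the same rule. Of the 38703 probes that were well above the local background on at least 4 arrays, and were therefore tested, 9 were the probes of these genes. Akr1c20 did not pass, since its probe was well above background on 2 arrays.

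Aldo-keto reductases are soluble enzymes that use NADPH to turn aldehydes and ketones into alcohols. Akr1b3 is the mouse aldose reductase, the first enzyme of the polyol pathway, Akr1b7 and Akr1b8 are relatives of it that reduce lipid-derived and other reactive aldehydes, and the Akr1c enzymes are mainly hydroxysteroid dehydrogenases. The Akr1b genes followed here lie on chromosome 6 in the RefSeq order Akr1b3, Akr1b8, Akr1b7, without regard to other genes between them. The Akr1c genes lie on chromosome 13 in the order Akr1c14, Akr1c18, Akr1c13, Akr1c19, Akr1c12, Akr1c6, Akr1c20. The pregnane X receptor (PXR, gene Nr1i2) is a nuclear receptor that binds drugs, steroids and bile acids and switches on genes of their metabolism, and Akr1b7 has been described in rodents as one of the genes that nuclear receptors of this class control.

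Colons came from male mice on the C57BL/6J background in 4 groups. WT CONT (4 arrays) and WT PCN (4 arrays) are wild-type mice that were purchased, whereas Pxr-/- CONT (5 arrays) and Pxr-/- PCN (4 arrays) are Pxr-null mice bred in the authors' own facility, so that genotype and origin cannot be told apart. WT mice were 6 weeks old when bought, the age of the Pxr-/- mice is not given in the sources used here, and all were acclimatized for 2 weeks. PCN is pregnenolone 16α-carbonitrile, a synthetic steroid that activates mouse PXR. It was injected intraperitoneally at 100 mg/kg in corn oil once a day for 4 days, controls received corn oil alone, and fed mice were killed at ZT6, that is 6 h after the last injection. The 17 arrays were hybridised on 8 slides and washed in 2 baths, and the labels do not number the mice, so that p-values measure the spread between these arrays.

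Array facts that touch the results are few. Between 60.95% and 69.7% of probes were well above background on an array, no spot was saturated, and all 12 colon epithelium markers were well above background on all 17 arrays. The mean of these 12 was lowest on WT CONT 3 (14.63) and highest on Pxr-/- CONT 4 (15.37). Single markers could vary more: Slc51a ran from 5.55 on WT PCN 1 to 15.70 on Pxr-/- PCN 4 and was 10.39 on WT PCN 2. In 2 pairs the arrays carried different labels but nearly the same values: over 38646 probes the log2 difference had an SD of 0.172 between the arrays labelled WT PCN 4 and Pxr-/- PCN 2 and of 0.198 between those labelled WT PCN 3 and Pxr-/- CONT 2, against 0.298 for the next closest of all pairs. Nr1i2, the deleted gene, had log2 signals of 11.97, 12.31, 12.07 and 12.01 in WT CONT, of 12.44, 11.85, 11.10 and 11.15 in WT PCN replicates 1 to 4, of 11.61, 11.13, 10.39, 10.89 and 11.34 in Pxr-/- CONT and of 11.37, 10.95, 11.93 and 11.66 in Pxr-/- PCN. The arrays labelled WT PCN 3 and 4 thus lie below every other WT array for Nr1i2 and within the range of the Pxr-/- arrays. WT PCN 2 at 11.85 also lies within that range, which reaches 11.93 on Pxr-/- PCN 3, so that this probe does not separate the genotypes array by array. Whether it lies in the deleted part of the gene is not given in the sources used here. Which label of a near-identical pair is right is not settled by the labels, so the differences between groups are given with all 17 arrays and on the 13 that remain without these 4, whereas correlations and pattern likeness were computed over the 13 arrays alone. Groups then hold 4, 2, 4 and 3 arrays in the order above. The 9 reductases differed little within each of the pairs: 8 of 9 by less than 0.15 on the log2 scale in either pair, the largest difference being 0.26.

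Akr1b7 is the gene the results turn on, and its probe lies on the plus strand of chr6:34372905-34372964 (mm9), within the transcript that RefSeq assigns to Akr1b7 alone. The first 30 of its 60 bases and the RefSeq promoter window of Akr1b7 (250 bases before to 50 after the start, GRCm38.p6, plus strand, chr6:34412112-34412411) are shown because Akr1b7 was the member that differed between groups. Capitals in the promoter mark the only match to the half-sites AGGTCA or AGTTCA, either strand, to which receptors of the PXR class are known to bind in pairs.
Akr1b7 probe: gagatccgtgcatgatagattccttcgtct
Akr1b7 promoter: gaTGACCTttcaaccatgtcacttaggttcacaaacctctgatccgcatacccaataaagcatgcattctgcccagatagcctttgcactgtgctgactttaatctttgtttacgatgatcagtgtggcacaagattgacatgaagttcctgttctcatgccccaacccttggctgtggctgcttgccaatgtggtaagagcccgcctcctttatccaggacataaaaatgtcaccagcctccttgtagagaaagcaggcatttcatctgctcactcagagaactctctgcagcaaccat

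The match begins 248 bases before the start and is an AGGTCA on the minus strand. Of 32851 promoter windows of this length, 16.3% hold AGGTCA and 14.0% hold AGTTCA. The Akr1b8 window holds an AGTTCA 76 bases before the start, the Akr1c14 window an AGTTCA 147 bases before it and the Akr1c18 window an AGGTCA 27 bases after it, and those of Akr1c6, Akr1c12, Akr1c13 and Akr1c19 hold neither. Pairs of these half-sites arranged as direct repeats with a spacer of 3 or 4 bases or as an everted repeat with a spacer of 6 were found in none of the 8 windows matched to the 10 genes, against 0.0122%, 0.0274% and 0.00913% of all windows. Matches describe these letters and not binding.

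Among the aldose reductase relatives, PCN was accompanied by higher Akr1b7 in the WT colon only on some of the arrays labelled so. Akr1b7 had log2 signals of 8.37, 8.48, 8.92 and 8.37 in WT CONT. In WT PCN the values were 10.71, 10.28, 8.16 and 7.26 for replicates 1 to 4. Replicates 1 and 2 were above every control, and the near-identical arrays labelled WT PCN 3 and 4 were below every control. The Pxr-/- CONT arrays read 7.70, 8.27, 7.92, 8.20 and 7.89, and the Pxr-/- PCN arrays 7.67, 7.34, 7.86 and 7.81, so that all 9 lay under the lowest WT control.

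**Figure D1:**
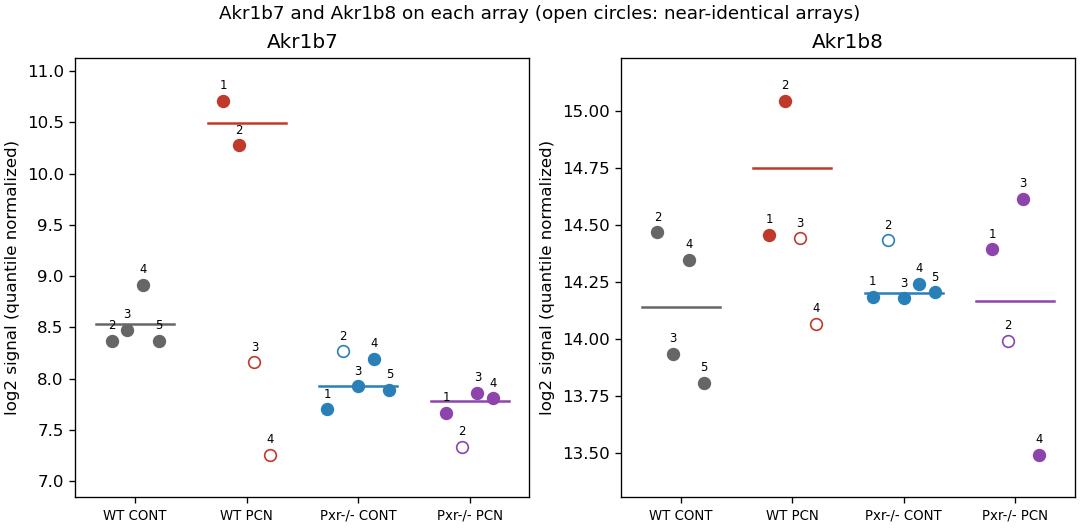
Quantile-normalized log2 signal of Akr1b7 (left) and Akr1b8 (right) on each of 17 arrays, by group, with the replicate number over each point; open circles are the near-identical arrays and lines are the group means over the 13 other arrays. WT PCN replicates 1 and 2 stand at 10.71 and 10.28 for Akr1b7 while all other arrays lie at 8.92 or below, and the groups overlap for Akr1b8.

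With all 17 arrays, limma called none of the 9 tested genes after PCN in WT mice at the threshold used throughout (adjusted p no higher than 0.05, over 1.5-fold), against 0% of all probes (1803 of 38703 had an unadjusted p under 0.05). Akr1b7 differed by 0.69 on the log2 scale (SE 0.53, adjusted p = 0.956). Without the 4 near-identical arrays it was called: WT CONT averaged 8.53 ± 0.26 (SD, n = 4) and WT PCN 10.50 ± 0.31 (SD, n = 2) on the log2 scale, a log2 fold change of 1.96 (SE 0.19, adjusted p = 0.00622 by limma with Benjamini-Hochberg adjustment), or 3.90-fold. On these arrays 1 of the 9 genes was called higher, against 19 probes or 0.0491% of all probes, and Akr1b7 had the fourth smallest p of all. The rise rests on 2 treated arrays, 1 in each wash bath: it was 1.85 (SE 0.17, adjusted p = 0.0475) within bath 1 and 2.07 (SE 0.26, adjusted p = 0.245) within bath 2. It took the same value when the arrays labelled WT PCN 3 and 4 alone were left out (1.96, SE 0.20, adjusted p = 0.00278), an omission chosen after the data were seen, and it was not called with slide as a fixed block (1.85, adjusted p = 1.00) or with only the 2 groups in the fit (1.96, adjusted p = 0.234).

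In Pxr-/- mice Akr1b7 did not differ with PCN beyond the spread: the difference was -0.28 (SE 0.50, adjusted p = 0.951) on 17 arrays and -0.15 on 13 (95% interval -0.53 to 0.22, adjusted p = 0.928). Among PCN-treated mice the gene was lower in Pxr-/- than in WT on 13 arrays, with a log2 difference of -2.72 (SE 0.20, adjusted p = 0.00099), or 6.59-fold. It was 1 of 8 probes called lower, 0.0207% of all probes. Within wash baths 1 and 2 it was -2.41 and -2.98 (adjusted p = 0.0717 and 0.0728), and it was not called either with slide as a fixed block (-2.39, adjusted p = 0.716) or with only the 2 groups in the fit (-2.74, adjusted p = 0.229). On 17 arrays this difference was -1.55 (SE 0.53) with an adjusted p of 1.00 and an unadjusted p of 0.0112. The interaction of genotype and PCN was -2.12 (SE 0.25) on 13 arrays and was not called (adjusted p = 0.111), although Akr1b7 had the second smallest p of all probes, and 1 probe or 0.00258% was called. On 17 arrays the interaction was -0.97 (SE 0.73, adjusted p = 0.857 by limma).

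Without PCN, Akr1b7 was lower in Pxr-/- than in WT on every array: the 2 groups did not overlap on 17 arrays or on 13. The difference was -0.58 (SE 0.50, adjusted p = 0.636) on 17 arrays and -0.61 on 13 (SE 0.15, adjusted p = 0.224), a value that did not pass the test, and with slide as a fixed block on 17 arrays it turned to 0.30. Groups that do not overlap in this direction were found for 3.01% of all probes on 17 arrays and for 3.72% on 13, and for 1 of the 9 genes each time, Akr1b7 itself.

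Markers of other tissues varied among these arrays and were set beside Akr1b7. The mean of 8 hepatocyte markers was 8.81 and 8.57 on WT PCN 1 and 2, which carry the high Akr1b7 values, 10.93 on WT CONT 5, where Akr1b7 was at 8.37, and 6.52 to 7.27 on the other 14 arrays. The mean of 8 pancreatic acinar markers was 10.96 on WT PCN 1 and 5.55 on WT PCN 2, and reached 17.66 on WT CONT 4, where Akr1b7 was at 8.92. The mean of 4 distal colon markers was 11.32 and 8.89 on WT PCN 1 and 2. The mean of 7 adipocyte markers lay lower with PCN in both genotypes, though the ranges overlap: 9.43 to 11.002 in WT CONT against 8.34 to 9.79 in WT PCN (9.59 and 9.79 on replicates 1 and 2), and 8.71 to 10.24 in Pxr-/- CONT against 7.75 to 8.87 in Pxr-/- PCN. The mean of 8 smooth muscle markers was 13.16 to 14.14 over all arrays. The part of RNA from these tissues in the Akr1b7 values was not tested. In whole colon, fewer cells of a type and less RNA per cell cannot be told apart.

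Akr1b8, also known as an enzyme induced by fibroblast growth factor, was bright on every array. Its log2 signals were 14.47, 13.94, 14.35 and 13.81 in WT CONT and 14.46, 15.05, 14.44 and 14.07 in WT PCN, and they were 14.19, 14.43, 14.18, 14.24 and 14.21 in Pxr-/- CONT and 14.39, 13.99, 14.62 and 13.49 in Pxr-/- PCN. The groups overlap throughout. The PCN difference in WT was 0.33 (SE 0.24, adjusted p = 0.956) on 17 arrays and 0.61 on 13 (95% interval 0.02 to 1.20, unadjusted p = 0.0438, adjusted p = 1.00 by limma), and in Pxr-/- it was -0.14 (SE 0.22) and 0.01 (SE 0.24). The data thus give no call for Akr1b8 and leave room for a change in WT of up to 1.20 on the log2 scale.

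**Figure D2:**
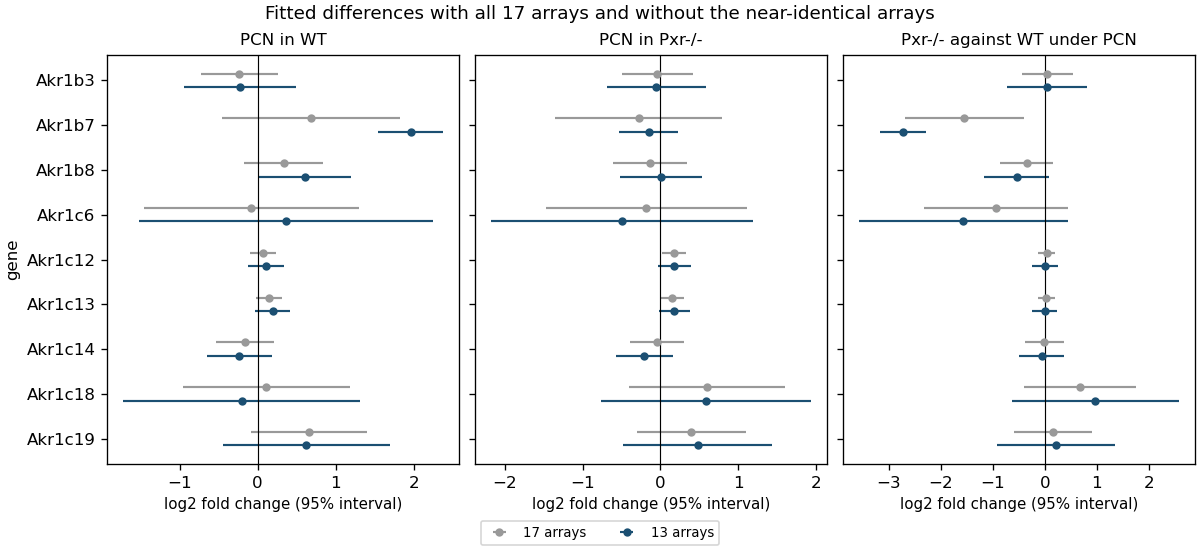
Log2 fold changes of the 9 tested genes with 95% intervals from limma for PCN in WT, PCN in Pxr-/- and Pxr-/- against WT under PCN, with 17 arrays (grey) and without the near-identical arrays (13 arrays, dark). Akr1b7 moves from 0.69 to 1.96 for PCN in WT and from -1.55 to -2.72 for the genotypes under PCN, and the intervals of all other genes on 13 arrays include 0 or, for Akr1b8 in WT, begin at 0.02; Akr1c6 was not well above background on any Pxr-/- PCN array of the 13.

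Akr1b3, aldose reductase, was also bright on every array and none of its comparisons was called. Its log2 signals were 13.51, 13.59, 13.09 and 13.48 in WT CONT, 13.33, 13.06, 13.18 and 13.22 in WT PCN, 13.56, 13.17, 13.23, 12.86 and 13.51 in Pxr-/- CONT and 13.47, 13.24, 13.76 and 12.45 in Pxr-/- PCN. The PCN difference was -0.23 (SE 0.23) in WT and -0.04 (SE 0.22) in Pxr-/- on 17 arrays, and -0.22 (SE 0.33) and -0.05 (SE 0.29) on 13. Both Akr1b3 probes are also annotated to the pseudogene Gm6644, so that signal from it cannot be told apart.

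Across arrays Akr1b3 varied with position markers of the colon. The mean log2 signal of Hoxb13, Hoxd12, Hoxd13 and Hoxa13, homeobox genes expressed towards the distal end of the gut, ranged from 8.38 to 11.36 on 16 arrays and was 6.54 on the array labelled Pxr-/- PCN 4, where Hoxb13 was at 7.53 against 12.88 to 16.09 elsewhere. Over the 13 arrays Akr1b3 rose with this mean (Pearson r = 0.935, permutation p = 2e-05, Spearman rho = 0.808, permutation p = 0.00146, two-sided). Values adjusted over the 9 genes were 0.000135 and 0.00657, r was 0.807 without the 2 arrays farthest from the median of the markers (Pxr-/- CONT 4 and Pxr-/- PCN 4), and it was 0.985 within wash bath 1 (6 arrays) and 0.914 within bath 2 (7 arrays). Of all probes, 0.339% followed the markers at least as closely in the same direction, and the points share each array's normalization.

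Akr1c18 and Akr1c19 ran the other way. Akr1c18 is the 20-alpha-hydroxysteroid dehydrogenase that inactivates progesterone, and Akr1c19 is a related reductase. Akr1c18 read 6.82, 6.53, 7.50 and 6.65 in WT CONT, 6.47, 6.86, 7.13 and 7.35 in WT PCN, 6.70, 7.16, 7.28, 7.50 and 6.70 in Pxr-/- CONT and 6.92, 7.61, 6.51 and 9.58 in Pxr-/- PCN. Its highest value belongs to Pxr-/- PCN 4, the array with the lowest distal colon markers, and the other 16 lie at 7.61 or below.

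Akr1c19 was 13.22, 12.80, 13.75 and 12.79 in WT CONT, 13.30, 14.23, 13.75 and 14.03 in WT PCN, 13.05, 13.75, 13.59, 14.05 and 13.32 in Pxr-/- CONT and 13.26, 13.97, 13.60 and 15.01 in Pxr-/- PCN. It too was highest on Pxr-/- PCN 4, and its groups overlap. Over the 13 arrays Akr1c18 fell as the distal markers rose (r = -0.915, permutation p = 3e-05, rho = -0.941, permutation p = 2e-05, two-sided, adjusted 0.000135 and 0.00018), with r of -0.852 without the 2 arrays farthest from the median, -0.865 within bath 1 and -0.977 within bath 2. For Akr1c19 r was -0.852 (permutation p = 0.00077, adjusted 0.00231), rho -0.632 (permutation p = 0.0241, adjusted 0.0633) and r without the same 2 arrays -0.602. Probes that followed the markers as closely in this direction were 0.585% of all for Akr1c18 and 1.66% for Akr1c19.

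**Figure D3:**
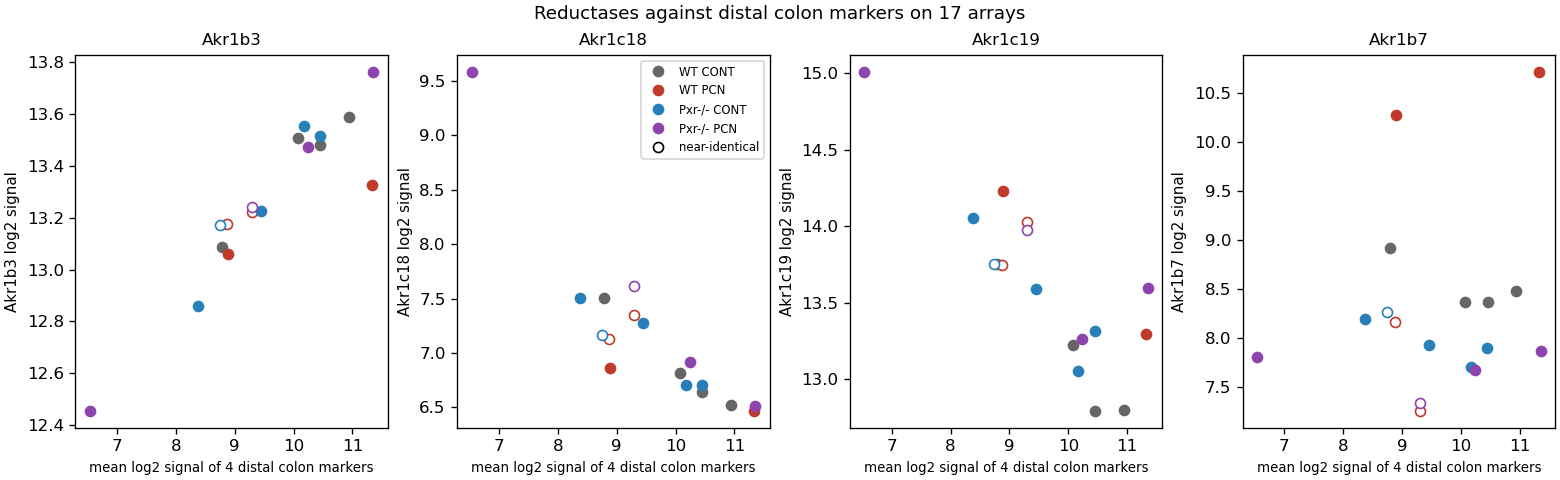
Log2 signal of Akr1b3, Akr1c18, Akr1c19 and Akr1b7 on 17 arrays against the mean log2 signal of 4 distal colon markers, coloured by group, with near-identical arrays as open circles. Akr1b3 rises (r = 0.935 over 13 arrays) and Akr1c18 and Akr1c19 fall (r = -0.915 and -0.852) along the marker axis, while the 2 high Akr1b7 points lie at marker means of 11.32 and 8.89.

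Neither Akr1c18 nor Akr1c19 was called in any comparison. The PCN difference of Akr1c18 was 0.11 (SE 0.50) in WT and 0.60 (SE 0.47) in Pxr-/- on 17 arrays, and the latter became -0.12 without Pxr-/- PCN 4. On 13 arrays it was -0.21 (SE 0.69) in WT and 0.59 (SE 0.61) in Pxr-/-, so that its sign in WT turned. That of Akr1c19 was 0.66 (SE 0.35, adjusted p = 0.956) in WT and 0.40 (SE 0.33) in Pxr-/-, the latter becoming -0.03 without the same array. On 13 arrays Akr1c19 was at 0.62 (SE 0.48) and 0.48 (SE 0.43). Whether the part of the colon taken has a share in these differences was not tested. For the other 5 tested genes r with the distal markers over 13 arrays was 0.129 for Akr1b7, 0.320 for Akr1b8, 0.153 for Akr1c6, 0.649 for Akr1c14 (adjusted permutation p = 0.0304) and -0.621 and -0.576 for Akr1c12 and Akr1c13 (adjusted permutation p = 0.0417 and 0.057). For Akr1c14, Akr1c12 and Akr1c13 r dropped to 0.426, -0.371 and -0.180 without the 2 arrays farthest from the median. Without the same 2 arrays r turned to -0.103 for Akr1b7 and -0.291 for Akr1b8, and was 0.0033 for Akr1c6.

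Akr1c12 and Akr1c13, reductases for which steroids and other alcohols are described as substrates, were the steadiest of the 9. Akr1c12 ranged from 13.45 to 13.87 and Akr1c13 from 14.51 to 14.96 over 17 arrays, with an SD of 0.111 for each, and the difference between them had an SD of 0.0607. The Akr1c12 probe is annotated to the transcripts of both genes and its 60 bases span 1790 bases of the minus strand (chr13:4267675-4269464, mm9), so that it crosses an intron, while the Akr1c13 probe (plus strand, chr13:4204668-4204727, mm9) is annotated to Akr1c13 alone. The Akr1c12 probe is shown because signal of the 2 genes cannot be told apart on it.
Akr1c12 probe: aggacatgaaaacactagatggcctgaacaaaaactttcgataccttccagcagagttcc

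In Pxr-/- mice the PCN difference was 0.17 for Akr1c12 (SE 0.07, 95% interval 0.02 to 0.33, adjusted p = 0.638) and 0.15 for Akr1c13 (SE 0.07, adjusted p = 0.665) on 17 arrays, with unadjusted p of 0.0305 and 0.0461 by limma against 7.35% of all probes under 0.05. On 13 arrays both were at 0.18 (SE 0.09). In WT it was 0.06 (SE 0.08) and 0.14 (SE 0.08) on 17 arrays. On 13 arrays Akr1c13 did not overlap between WT CONT (14.63, 14.60, 14.75 and 14.61) and WT PCN (14.79 and 14.88), as 6.39% of all probes did in that direction, and the difference was 0.19 (SE 0.10, adjusted p = 1.00). All intervals for both genes lie within 0.42 of 0 on the log2 scale on either set of arrays.

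Akr1c14, the 3-alpha-hydroxysteroid dehydrogenase, ranged from 11.12 to 11.78 with no call in any comparison. Its log2 signals were 11.71, 11.73, 11.17 and 11.66 in WT CONT, 11.40, 11.27, 11.30 and 11.78 in WT PCN, 11.64, 11.20, 11.49, 11.12 and 11.65 in Pxr-/- CONT and 11.28, 11.78, 11.39 and 11.14 in Pxr-/- PCN. The PCN difference was -0.17 (SE 0.17) in WT and -0.04 (SE 0.16) in Pxr-/- on 17 arrays and -0.24 (SE 0.19) and -0.21 (SE 0.17) on 13, and the second Akr1c14 probe gave 0.06 in Pxr-/-.

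Akr1c6, a 17-beta-hydroxysteroid dehydrogenase best known from the liver, was well above background on 7 arrays. These were WT CONT 5 at 9.15, WT PCN 1, 2 and 4 at 6.55, 6.85 and 5.59, Pxr-/- CONT 3 and 5 at 5.76 and 5.98 and Pxr-/- PCN 2 at 5.56. The 3 highest values belong to the 3 arrays with the highest hepatocyte markers, whose mean was 8.57 to 10.93 there and 6.52 to 7.27 on the other 14 arrays. Of the 8 markers, 7 or 8 were well above background on those 3 arrays and 4 to 7 on the others, and Fga was above it on WT CONT 5 alone. No comparison of Akr1c6 was called (PCN in WT -0.08, SE 0.65, and Pxr-/- against WT without PCN -0.84, SE 0.60), and without WT CONT 5 these 2 differences became 0.73 and 0.13. In the second of them the probe was well above background on 1 of 4 WT CONT and 2 of 5 Pxr-/- CONT arrays. On 13 arrays the 2 differences were 0.36 (SE 0.85) and -0.71 (SE 0.70). There Akr1c6 was well above background on both WT PCN arrays and on 0 of 3 Pxr-/- PCN arrays. Its mean log2 signal was 6.70 in WT PCN and 5.23 in Pxr-/- PCN, a measured ratio of 2.77-fold. Raising dim arrays to the lowest signal well above background left the mean at 5.23, so this ratio is no lower bound. The limma difference of Pxr-/- against WT under PCN was -1.57 (SE 0.90, adjusted p = 0.761). Its interval of -3.57 to 0.44 includes no difference. A part of liver RNA in these differences was not tested.

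**Figure D4:**
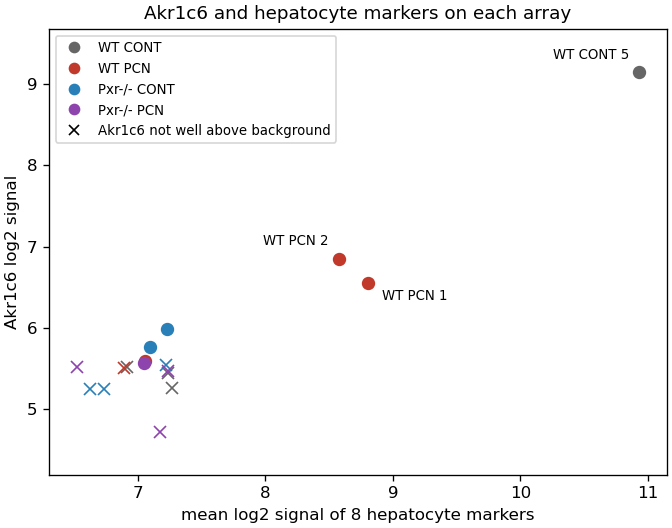
Log2 signal of Akr1c6 on each of 17 arrays against the mean log2 signal of 8 hepatocyte markers, coloured by group; crosses mark arrays on which Akr1c6 was not well above background. WT CONT 5, WT PCN 1 and WT PCN 2 stand apart on both axes, at Akr1c6 values of 9.15, 6.55 and 6.85.

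Akr1c20, a close relative of Akr1c6, was well above background on 2 arrays, WT CONT 5 at 6.48 and the array labelled Pxr-/- CONT 2 at 6.13. Its near-identical partner, labelled WT PCN 3, was at 4.97 and not well above background, and the second Akr1c20 probe was above it on no array.

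**Figure D5:**
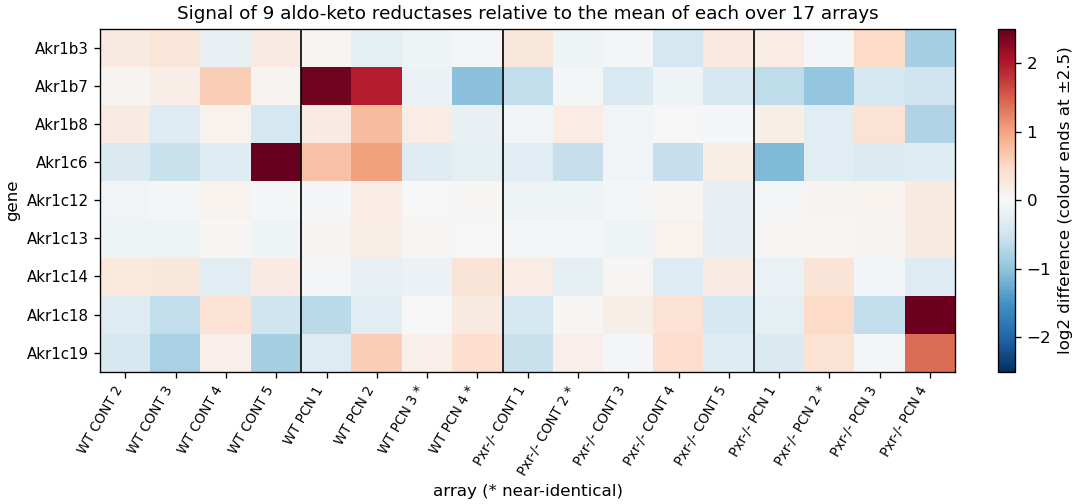
Log2 signal of the 9 tested genes on each of 17 arrays relative to the mean of each gene, with the colour scale ending at 2.5 in either direction, black lines between groups and near-identical arrays marked with an asterisk. The strong cells are Akr1b7 on WT PCN 1 and 2, Akr1c6 on WT CONT 5, and Akr1c18 and Akr1c19 on Pxr-/- PCN 4.

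Over the 9 genes together, the median PCN difference in WT was 0.11 on 17 arrays and 0.19 on 13, against -0.0001 and -0.0042 for all probes. In Pxr-/- it was -0.04 and 0.01, against 0.0062 and 0.0087. No gene was called after PCN in Pxr-/- on 17 arrays (2 probes or 0.00517% of all were) or on 13 (20 probes or 0.0517%), and 2 and 0 of the 9 genes had an unadjusted p under 0.05, as 7.35% and 7.19% of all probes did. None was called between genotypes without PCN either, where limma called 0 of all probes on 17 and on 13 arrays (4913 of them, or 12.7%, and 3899 had an unadjusted p under 0.05).

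The genes whose pattern over the 13 arrays was most like that of Akr1b7, by the root-mean-square difference of centred log2 signals among 25020 genes, were Abcb1b (0.376), Abcb4 (0.389) and Sh2d7 (0.396). Abcb1b encodes a multidrug transporter and Abcb4 the phospholipid transporter of bile, and Abcb1b read 12.28 and 12.40 on WT PCN 1 and 2 and 9.81 to 10.93 on the other 15 arrays. The Abcb4 probe ran parallel to it at a higher level on every array (14.33 and 14.51 on WT PCN 1 and 2). Whether the 2 probes read separate transcripts was not tested. The 3 genes were chosen for following Akr1b7 on these arrays, which fixes the pattern of their differences, and so the values are a description with no test. After PCN in WT the 3 genes differed by 1.49, 1.46 and 1.79 on 13 arrays and by 0.36, 0.32 and 1.07 on 17, and in Pxr-/- by 0.42, 0.45 and -0.17 on 13 and by 0.29, 0.31 and -0.15 on 17. For Akr1b8 the closest were Cldnd1 (0.195), Capg (0.199) and Acot10 (0.210), whose differences in WT were 0.28, 0.58 and 0.33 on 13 arrays and 0.15, 0.50 and 0.0462 on 17.

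The wider pathway was read from 7 lists of genes (106 distinct genes tested). None of them was called in any of the 5 comparisons on 17 or on 13 arrays. Over the lists, 3 tests were higher and 1 lower at an unadjusted p under 0.05 after PCN in WT on 17 arrays, out of 107, and 6 and 1 on 13 arrays, against 4.66% and 4.68% of all probes in either direction.

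Other aldo-keto reductases (5 of 7 tested) gave no call. Akr1cl had the smallest p after PCN in WT on 13 arrays (-0.43, SE 0.16, adjusted p = 0.941, and -0.28 on 17), and Akr7a5, which reduces aflatoxin aldehydes, between genotypes without PCN on 17 (-0.24, SE 0.08, adjusted p = 0.269, and -0.23 on 13). In the polyol pathway and fructose use (7 of 7 tested), 0 genes had an unadjusted p under 0.05 in any comparison. Sord, the sorbitol dehydrogenase that acts after aldose reductase, was at -0.16 (SE 0.16) after PCN in WT on 17 arrays and at -0.0241 (SE 0.18) on 13.

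NRF2 target genes, which respond to reactive compounds, were tested for 24 of 25 genes. Their median PCN difference was 0.14 in WT and 0.10 in Pxr-/- on 17 arrays and 0.17 and 0.16 on 13. Hmox1, the haem oxygenase, had the smallest p of this list in both genotypes, with differences on 13 arrays of 1.24 in WT (SE 0.19, adjusted p = 0.0698) and 0.91 in Pxr-/- (SE 0.17, adjusted p = 0.202), neither of them called. On 17 arrays they were 0.67 (SE 0.28) and 0.83 (SE 0.26).

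Among aldehyde and carbonyl oxidoreductases outside the family (22 of 24 tested), Aldh1a3, which makes retinoic acid, differed by 0.60 in WT (SE 0.27, adjusted p = 0.956) and by 1.05 in Pxr-/- (SE 0.26, adjusted p = 0.354) on 17 arrays, and by 0.93 (SE 0.25, adjusted p = 0.592) and 0.96 (SE 0.23, adjusted p = 0.357) on 13. Of the 23 tested genes of steroid synthesis and conversion, Hsd17b11 had the smallest p between genotypes without PCN (-0.67, SE 0.14, adjusted p = 0.184, on 17 arrays, and -0.65 on 13) and Hsd11b2, which inactivates corticosterone, after PCN in Pxr-/- (0.81, SE 0.28, adjusted p = 0.544, on 17 arrays, and 0.91 on 13). For prostaglandin synthesis and breakdown (17 of 17 tested), Ptgs2, the inducible cyclooxygenase, was at -0.76 after PCN in Pxr-/- (SE 0.26, adjusted p = 0.544, 17 arrays, and -0.99 on 13) and the receptor gene Ptger3 at -0.69 between genotypes without PCN (SE 0.19, adjusted p = 0.239, and -0.63 on 13). In the list of xenobiotic receptors (9 of 9 tested), Nr1i2 was at -1.06 in Pxr-/- against WT without PCN (SE 0.25, adjusted p = 0.201, 17 arrays, and -1.03 on 13) and Pparg was at 0.54 after PCN in WT (SE 0.25, adjusted p = 0.956, and 0.87 on 13).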

How the data were processed

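Colon RNA was read on 17 Agilent arrays of the 1-colour type, and the labels do not say whether each array is a separate mouse. The authors deposited the scanner output (median, mean, background and processed intensity for each spot, Agilent Feature Extraction 10.10.1.1 per the labels) and a table of normalized log2 values. Quantile normalization stands in for CrossNorm, which the study's methods name. Control spots were left out, outlier spots set to missing, median intensities log2-transformed, quantile-normalized and averaged per probe (56605 probes). Probes well above background on at least 4 arrays (38703) were fitted with limma 3.58.1 (R 4.3.3): 4 groups plus wash bath, all arrays sharing 1 estimate of the spread, Benjamini-Hochberg over all tested probes, with calls at an adjusted p no higher than 0.05 and over 1.5-fold. The same fit was run on 13 arrays. The number of arrays limits the precision. Correlations used 100000 permutations. The code was tested on simulated data. Named genes were the 10 reductases, the list gene with the smallest p in a comparison, and the 3 genes most like Akr1b7 and Akr1b8; markers are named beside results. Genes and lists were chosen with earlier results of these data known, and the correlation with distal markers was added after the data were seen.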

Additional observations from a re-analysis of the deposited data

Results flagged for a closer look

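In groups of 4 or 5 arrays, 5 of 36 sets of reductase values had an array whose gap to the nearest other was large against the range of its group; chance gives about 1 in 20. Akr1b8 was high on the array labelled Pxr-/- CONT 2 (14.43), 1 of the near-identical arrays, against 14.18 to 14.24 on the other 4 of that group. Akr1c6 was high on WT CONT 5 (9.15), the array with the highest hepatocyte markers, and low on Pxr-/- PCN 1 (4.72), where it was not well above background. Akr1c13 was high on Pxr-/- PCN 4 (14.96), the array with the lowest distal colon markers, and Akr1c14 was low on WT CONT 4 (11.17), the array with the highest pancreatic markers.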

How the results depend on the processing

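With 17 arrays, 0 of the 9 tested genes was called in any of the 5 comparisons under every alternative that kept the near-identical arrays, each single array left out included (0 to 0). Without the 4 near-identical arrays 1 gene (Akr1b7) was called for PCN in WT and 1 for the genotypes under PCN, and without WT PCN 3 and 4 alone, chosen after seeing the data, 1 in each of these and 1 for the interaction. On the 13 arrays 1 gene was called in any comparison. This became 0 with slide as a fixed block and with only the groups of a contrast in the fit. The call was also lost within wash bath 2 (Akr1b7 for PCN in WT 2.07) and kept within wash bath 1 (1.85), each with 1 WT PCN array. All these fits leave fewer arrays or residual degrees of freedom, and why the call was lost was not tested. Leaving out each WT CONT or Pxr-/- array kept the count at 1 to 1. Akr1b7 for PCN in WT then stayed between 1.72 and 2.21 with each of the 13 arrays left out and was called each time, a lone WT PCN array being assumed to vary like the other groups, and it was between 1.85 and 2.11 under the other alternatives. Its interaction was called without WT CONT replicate 4 (-2.24, adjusted p = 0.0191), without WT PCN replicate 2 (-2.35, adjusted p = 0.0224), with no wash bath term (-2.11, adjusted p = 0.0379) and within wash bath 1 (-2.05, adjusted p = 0.0484).

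Values that changed sign were all uncalled, and the cause was not tested. Within wash bath 1 they were, for PCN in Pxr-/-, Akr1b3 0.46, Akr1b8 0.0939, Akr1c6 0.0148, Akr1c14 0.28, Akr1c18 -0.32 and Akr1c19 -0.0371, for PCN in WT Akr1c6 0.63, and for genotype without PCN Akr1c6 0.15 and Akr1c12 0.0512. Within wash bath 2 they were, for PCN in WT, Akr1b3 0.0416, Akr1c12 -0.0462 and Akr1c18 -0.60, and for genotype without PCN Akr1b3 0.13, Akr1c13 -0.0496, Akr1c14 0.0827 and Akr1c18 -0.22. With slide as a fixed block Akr1b7 was 0.30 for genotype without PCN, Akr1c6 0.18 for PCN in WT, and Akr1b3 0.0017 and Akr1c14 0.10 for PCN in Pxr-/-. The scanner-corrected signal gave Akr1c6 0.34 (PCN in WT) and Akr1c14 0.0158 (PCN in Pxr-/-), only the groups of the contrast gave Akr1c6 0.13 (PCN in WT), and the other probes gave Akr1b3 0.013 and Akr1c14 0.0642 (PCN in Pxr-/-). Without the 4 near-identical arrays, Akr1c6 was 0.36 and Akr1c18 -0.21 (PCN in WT, also without WT PCN 3 and 4 alone) and Akr1b8 0.0105 (PCN in Pxr-/-).

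Whether replicate numbers pair the arrays was not settled. Of 22 same-numbered pairs, 11 had a correlation of deviations over 0.1 (range -0.33 to 0.49). Among the 17 arrays, 6 correlated best with an array of their own number. The near-identical arrays were included, and no range for differently numbered pairs was computed. With the replicate block 0 genes were called on 17 arrays and 1 on 13 (Akr1b7, PCN in WT 2.11), and Akr1c6 was 0.30 (PCN in WT) and 0.18 (PCN in Pxr-/-) and Akr1c14 0.0134 (PCN in Pxr-/-).

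With each array left out, values ranged, for PCN in WT, from -0.43 to 0.73 (Akr1c6) and from -0.0252 to 0.39 (Akr1c18), for PCN in Pxr-/- from -0.21 to 0.25 (Akr1b3), -0.29 to 0.0826 (Akr1b8), -0.36 to 0.15 (Akr1c6), -0.15 to 0.0365 (Akr1c14), -0.12 to 0.97 (Akr1c18) and -0.0276 to 0.64 (Akr1c19), and for genotype without PCN from -1.26 to 0.13 (Akr1c6) and -0.0305 to 0.055 (Akr1c13). Signal near background limits Akr1c6, which was well above it on 7 of 17 arrays, and Akr1c20, which could not be tested.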
